A study of Mus musculus with 2 samples.

Results

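The Hox genes examined here are the members of the 4 Hox clusters of the mouse that have a row in the deposited expression table of primordial germ cells (PGCs), from which eggs and sperm descend. They were chosen by gene symbol alone: 12 of the 39 mouse Hox genes had a row, among 18877 rows in all, and the other 27 were not analysed here. The PGCs came from untreated C57BL6 embryos at embryonic day 9.5 (E9.5), and were isolated by means of an antibody to the SSEA1 antigen. The study's methods call the embryos female. Both libraries belong to 1 group and their titles number them replicate 1 and replicate 2, so no comparison between conditions could be made. Cells isolated by surface antigens can include other cell types, and the number of embryos behind each library is not given in the sources used here. The study calls its RNA-seq replicates biological.

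Hox genes encode homeodomain transcription factors that give cells their position along the head-to-tail axis. They lie in clusters called HoxA to HoxD, and genes at the same place in different clusters, called paralogs, carry the same number. Low numbers are used in the head and neck and high numbers in the trunk and tail, and the clusters are opened by retinoic acid and Wnt signals and held silent by Polycomb complexes. In the mouse, PGCs are known to shut off somatic genes, Hox genes among them, when they are specified, with the repressor Prdm1 taking part.

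Values are TPM as deposited, a transcript abundance per base of gene length, so levels can be set side by side between genes. Gene positions follow GENCODE M21 on the GRCm38 (mm10) build. The number of reads behind each value was recovered from the table and came to 15912467 for replicate 1, which is 2.92 times the 5458682 of replicate 2. At the same TPM, a Hox value therefore rests on fewer reads in replicate 2. A count of 0 reads allowed at most 0.0965 to 0.204 TPM in the first replicate and 0.274 to 0.581 TPM in the other, depending on the gene's length (3 reads, counting error only). Intervals below are exact Poisson 95% intervals of the reads and also cover counting error only. Over 10912 rows with at least 50 reads, the chi-square between the libraries was 10.8 per row, so they differed by more than the sampling noise of 1 library deposited again. All 12 listed PGC markers had 1 TPM or more in each replicate, a level that 60.0% of all rows reached. They ranged from 6.98 ± 1.22 TPM for Prdm1 to 21079 ± 339.9 TPM for Dppa5a (SD, n = 2).

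The sequence just before the start site is shown for 4 Hox genes, since the level of a gene and the base composition of its promoter are set side by side further on. Promoter sequences of RefSeq on GRCm38.p6 were found for 7 of the 12 genes. Shown are Hoxa5, the highest gene with such a sequence, and Hoxa13, a gene listed at 0. Hoxd8 and Hoxd1, the highest member of the HoxD cluster and its member at 0, were added after their values were seen. Each run holds the 250 bases before the start, 5′ to 3′ on the gene's strand, and capitals mark the CpG dinucleotides, where DNA methylation is placed. The windows are chr6:52204588-52204837 (minus strand) for Hoxa5, chr6:52260881-52261130 (minus) for Hoxa13, chr2:74704365-74704614 (plus) for Hoxd8 and chr2:74762730-74762979 (plus) for Hoxd1.
Hoxa5: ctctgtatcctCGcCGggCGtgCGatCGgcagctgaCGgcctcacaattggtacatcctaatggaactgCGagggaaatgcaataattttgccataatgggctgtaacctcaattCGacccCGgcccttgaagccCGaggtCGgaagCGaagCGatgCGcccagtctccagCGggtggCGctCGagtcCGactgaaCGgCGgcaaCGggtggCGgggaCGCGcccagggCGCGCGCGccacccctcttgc
Hoxa13: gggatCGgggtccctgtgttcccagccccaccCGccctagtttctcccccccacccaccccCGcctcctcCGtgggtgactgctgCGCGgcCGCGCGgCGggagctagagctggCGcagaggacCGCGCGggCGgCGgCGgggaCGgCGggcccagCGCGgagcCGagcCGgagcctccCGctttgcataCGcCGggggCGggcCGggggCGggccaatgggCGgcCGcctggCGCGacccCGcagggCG
Hoxd8: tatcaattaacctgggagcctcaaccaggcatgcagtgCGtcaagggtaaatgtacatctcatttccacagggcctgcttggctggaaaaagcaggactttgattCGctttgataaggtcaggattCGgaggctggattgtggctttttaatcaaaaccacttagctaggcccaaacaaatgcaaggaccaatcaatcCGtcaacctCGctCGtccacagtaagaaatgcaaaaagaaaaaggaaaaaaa
Hoxd1: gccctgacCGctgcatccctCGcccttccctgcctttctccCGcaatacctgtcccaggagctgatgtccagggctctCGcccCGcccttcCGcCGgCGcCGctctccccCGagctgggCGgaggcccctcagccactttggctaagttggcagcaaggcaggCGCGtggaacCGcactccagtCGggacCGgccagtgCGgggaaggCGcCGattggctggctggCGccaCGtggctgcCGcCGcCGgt

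Transcripts of the 12 listed Hox genes were scarce in E9.5 PGCs, and the 27 genes without a row cannot be judged. The 12 genes together summed to 13.6 TPM (replicate 1) and 17.3 TPM (replicate 2). The genes Hoxa2, Hoxa5, Hoxa10, Hoxb7 and Hoxd8 had 1 TPM or more in each replicate, which is 5 of 12 members, while 60.0% of all rows did so. Hoxa13 and Hoxd1 were listed at 0 in both replicates, 2 of 12 members beside 7.81% of all rows. All 12 members are protein-coding. Of 12679 protein-coding rows, 8813 had 1 TPM or more in each replicate and 304 were at 0 in both. The median of the Hox genes as log2(TPM + 1) was 0.55 in the first library and 1.11 in the second (mean 0.83 ± 0.396, SD, n = 2), while the median of all rows was 1.89 and 1.85. The Hox median lay below it by 1.35 in replicate 1 and 0.75 in replicate 2, more than the spread between replicates (SD 0.424). Its difference from the median of protein-coding rows alone was -1.43 ± 0.448 (SD, n = 2). In a bulk library, fewer cells of a type and less RNA per cell cannot be told apart.

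**Figure D1:**
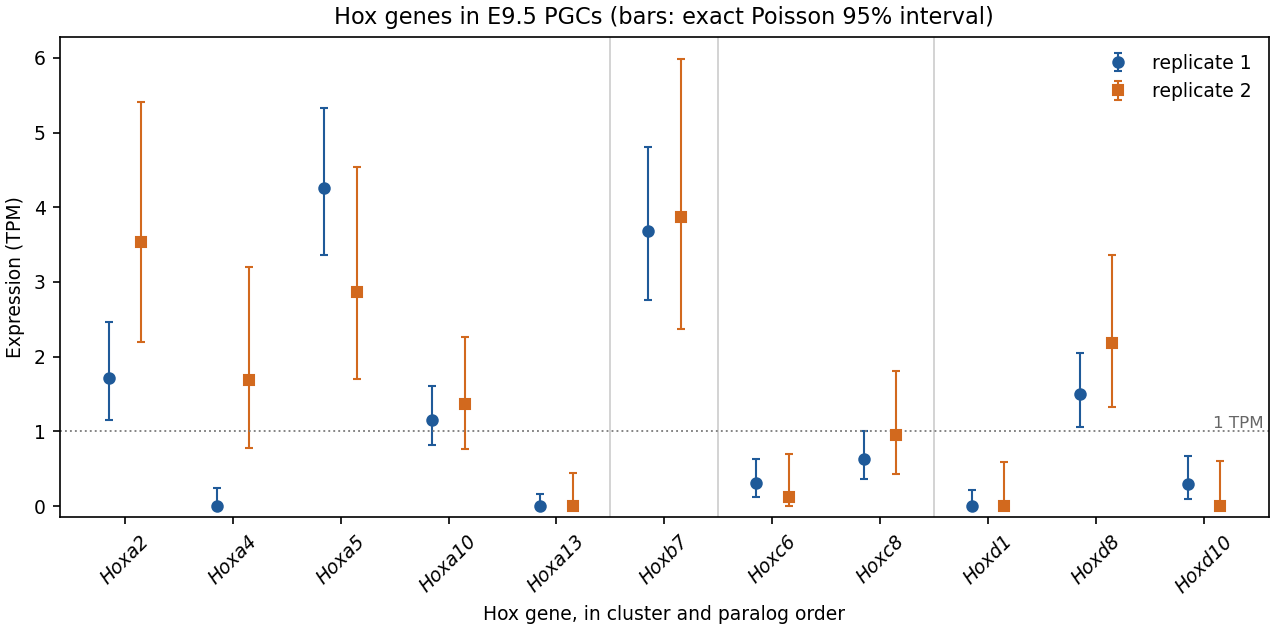
Expression in TPM of 11 of the 12 Hox genes with a row, in cluster and paralog order; circles are replicate 1, squares are replicate 2, and bars are exact Poisson 95% intervals of the reads. Hoxb7 and Hoxa5 are highest by mean, at 3.78 and 3.56 TPM, Hoxa13 and Hoxd1 sit at 0, and Hoxa4 is at 0 in replicate 1 and at 1.69 TPM in replicate 2.

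The highest member was Hoxb7 (chromosome 11, 96286623 to 96290162), a gene of thoracic identity. It was at 3.68 TPM in replicate 1 (54 reads, interval 2.76 to 4.80) and 3.87 TPM in replicate 2 (20 reads, 2.37 to 5.98), a mean of 3.78 ± 0.138 (SD, n = 2). Its value was nearly the same in both libraries and lay at the 55.4th and 57.2nd percentile of all rows. The highest of the 12 listed Hox genes was thus a gene of middling abundance.

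Hoxa5 (chromosome 6, 52201754 to 52204587), which acts in the neck and upper thorax and in the developing lung, followed at 4.26 TPM in replicate 1 (76 reads, interval 3.36 to 5.33) and 2.87 TPM in replicate 2 (18 reads, 1.70 to 4.53). Its order against Hoxb7 turned between the libraries and their intervals overlapped in each, so they were not separable. Hoxa2 (chromosome 6, 52162417 to 52164831), which sets the identity of the hindbrain and of the branchial arch behind the jaw, was at 1.72 TPM in replicate 1 (29 reads, interval 1.15 to 2.47) and 3.54 TPM in replicate 2 (21 reads, 2.19 to 5.41). It was higher in replicate 2 with overlapping intervals. Of its exonic bases, 267 (15.0%) are shared with Gm28308 on the same strand, and how the authors' counting treated reads of both is not stated.

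Hoxd8 (chromosome 2, 74704615 to 74707933), a trunk gene, was at 1.495 TPM in replicate 1 (39 reads, interval 1.06 to 2.04) and 2.18 TPM in replicate 2 (20 reads, 1.33 to 3.37). Hoxa10 (chromosome 6, 52231197 to 52240854), known for the lumbar spine and the uterus, was the lowest member past a TPM of 1 in both, at 1.16 TPM (36 reads, 0.811 to 1.603) and 1.37 TPM (15 reads, 0.768 to 2.26). It was the only posterior member at this level. The replicate intervals of both genes overlapped.

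Other members with reads fell below this level in at least 1 replicate. Hoxc8 (chromosome 15, 102990607 to 102994111), a gene of the lower thorax and of motor neuron pools, was at 0.631 TPM (17 reads) and 0.951 TPM (9 reads). Hoxc6 (chromosome 15, 102998257 to 103011881), also thoracic, was at 0.306 TPM (7 reads) and 0.124 TPM (1 read). Hoxd10 (chromosome 2, 74691924 to 74695105), a gene of lumbar motor neurons and the hindlimb, had 5 reads in replicate 1 (0.290 TPM) and none in replicate 2. At this depth its absence from replicate 2 cannot be told from its level in replicate 1, since 0 reads in replicate 2 allowed up to 0.494 TPM.

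Hoxa4 was seen in replicate 2 alone. Hoxa4 (chromosome 6, 52189671 to 52191753), a gene of the neck vertebrae, had 0 reads in replicate 1, which allowed at most 0.198 TPM, and 9 reads in replicate 2 (1.69 TPM, 0.772 to 3.21). Of the members with a read, Hoxa4 was the only one whose intervals did not overlap between the libraries, 1 of 10, while 16.3% of the 7734 rows with 1 to 100 reads in all were apart in this way. Of its exonic bases, 255 face Gm29430 on the opposite strand.

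Hoxa13 (chromosome 6, 52257694 to 52260880), needed for digits, the hindgut end and the genital tubercle, had 0 of all reads in both libraries, which allowed at most 0.128 and 0.363 TPM. Hoxd1 (chromosome 2, 74762980 to 74765142), known from pain-sensing neurons, was likewise at 0, which allowed at most 0.170 and 0.482 TPM. These limits lie below a TPM of 1, and so by definition below the 5 members picked at that level in both replicates. Neither gene was separate from Hoxc8, Hoxc6 or Hoxd10 in both libraries.

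By mean TPM, the order of the genes described above was Hoxb7, Hoxa5, Hoxa2, Hoxd8, Hoxa10, Hoxa4, Hoxc8, Hoxc6 and Hoxd10. No neighbours in this order had separate intervals in both libraries. In replicate 1 alone, Hoxa5 lay above Hoxa2 and Hoxa10 above Hoxa4, and Hoxc8 lay above Hoxa4, against the order of the means. Over all 66 pairs of the 12 genes, 26 were separate in the same direction in both libraries. Hoxb7 stood above Hoxa10, Hoxc8, Hoxc6, Hoxd10, Hoxa13 and Hoxd1 in this way, while Hoxd8 and Hoxa10 each stood above Hoxc6, Hoxd10, Hoxa13 and Hoxd1.

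Sequence shared between paralogs could blur such an order. None of the 50-base words of the transcripts of Hoxa5, Hoxa10, Hoxa13, Hoxb7, Hoxc6, Hoxd1 and Hoxd8 occurred in the transcripts of another gene. In Hoxa2 and Hoxa4 it was 12.7% and 13.3% of the words, each in the 1 overlapping gene named above, in Hoxd10 3.17% (Gm28309) and in Hoxc8 0.432%.

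The clusters were compared next. HoxA (chromosome 6, 105 kb) had rows for 6 of 11 genes, of which 3 had 1 TPM or more in each library. HoxB (chromosome 11, 174 kb) had a row for Hoxb7 only, 1 of 10 genes. HoxC (chromosome 15, 116 kb) had rows for 2 of 9 genes, neither past that level, with 0.937 and 1.07 TPM together. HoxD (chromosome 2, 96.8 kb) had rows for 3 of 9 genes, of which Hoxd8 supplied all reads in replicate 2.

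Medians by cluster were 0.59 and 1.34 on the log2(TPM + 1) scale for HoxA in replicates 1 and 2, 0.55 and 0.57 for HoxC, and 0.37 and 0 for HoxD. The HoxA median was 0.96 ± 0.529 (SD, n = 2) and that of HoxC 0.56 ± 0.0147, a gap smaller than the spread of HoxA, while HoxB was Hoxb7 alone at 2.26 ± 0.0417. The HoxD median was the value of Hoxd10, whose 5 reads came from replicate 1. With 1 to 6 genes each, these medians describe the listed genes and not the clusters.

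**Figure D2:**
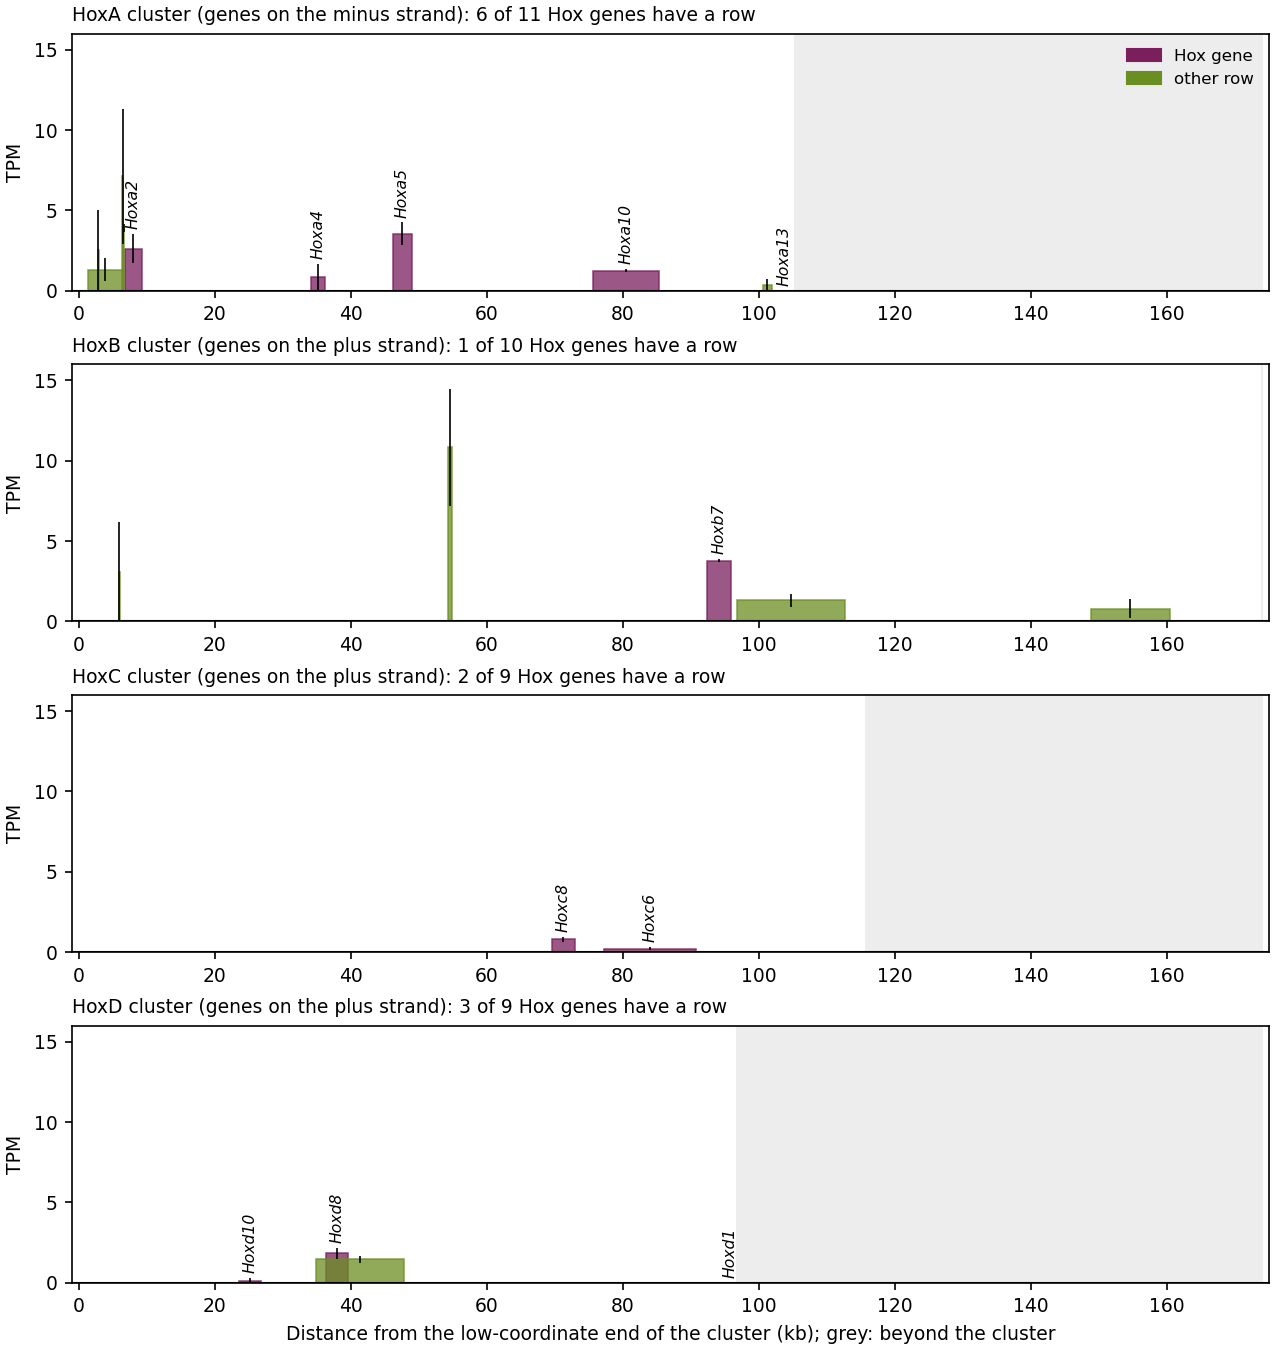
Map of the 4 Hox clusters drawn to scale, with the distance from the low-coordinate end of the cluster in kb on the x axis and TPM on the y axis; bars are the mean of both replicates, bar widths are gene lengths, and vertical lines join both replicate values; 1 Hox gene with a row is not drawn. Purple marks Hox genes with a row and green the other rows inside the cluster, and the highest purple bars are Hoxb7 and Hoxa5 at 3.78 and 3.56 TPM.

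By position on the body axis, 6 of the 12 rows were central genes (paralogs 4 to 8). These members, Hoxa4, Hoxa5, Hoxc6, Hoxb7, Hoxc8 and Hoxd8, came to 10.4 and 11.7 TPM, 3 of them passed a TPM of 1 in both replicates, and none was at 0 in both. Of the 3 anterior members (paralogs 1 to 3), Hoxa2 was the only one with 1 TPM or more in each library, and Hoxd1 was at 0. The 3 posterior members (paralogs 9 to 13), Hoxa10, Hoxd10 and Hoxa13, came to 1.45 and 1.37 TPM, of which Hoxa10 held 1.16 and 1.37 TPM. The median was 1.28 ± 0.379 for central and 0.18 ± 0.259 for posterior members on the log2(TPM + 1) scale (SD, n = 2). The posterior median was the value of Hoxd10, with 5 reads in replicate 1 and 0 in replicate 2. Rows existed for 6 of 15 central and 3 of 16 posterior genes, so these medians describe the listed genes only.

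Paralogs of the same number were compared in groups 8 and 10. In group 8, Hoxd8 had the higher value in both libraries and its interval lay above that of Hoxc8 in replicate 1 only. In group 10, Hoxa10 lay above Hoxd10 in both. Across the 12 genes, the mean log2(TPM + 1) had a Pearson's r of -0.10 and a Spearman's rho of -0.08 with the paralog number, a weak correlation that is no finding at these read numbers, and r of -0.16 and rho of -0.17 with exon length.

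Between the replicates, 7 members were higher in replicate 2, 3 were higher in replicate 1 and 2 were at 0 in both. The median difference (replicate 2 minus replicate 1) was 0.10 on the log2(TPM + 1) scale. Hoxa4 alone differed more than 2-fold on this scale, 1 of 12 members, while 10.2% of all rows did so. With a pseudocount of 0.1 in place of 1, which weighs low values more, 4 members differed more than 2-fold.

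**Figure D3:**
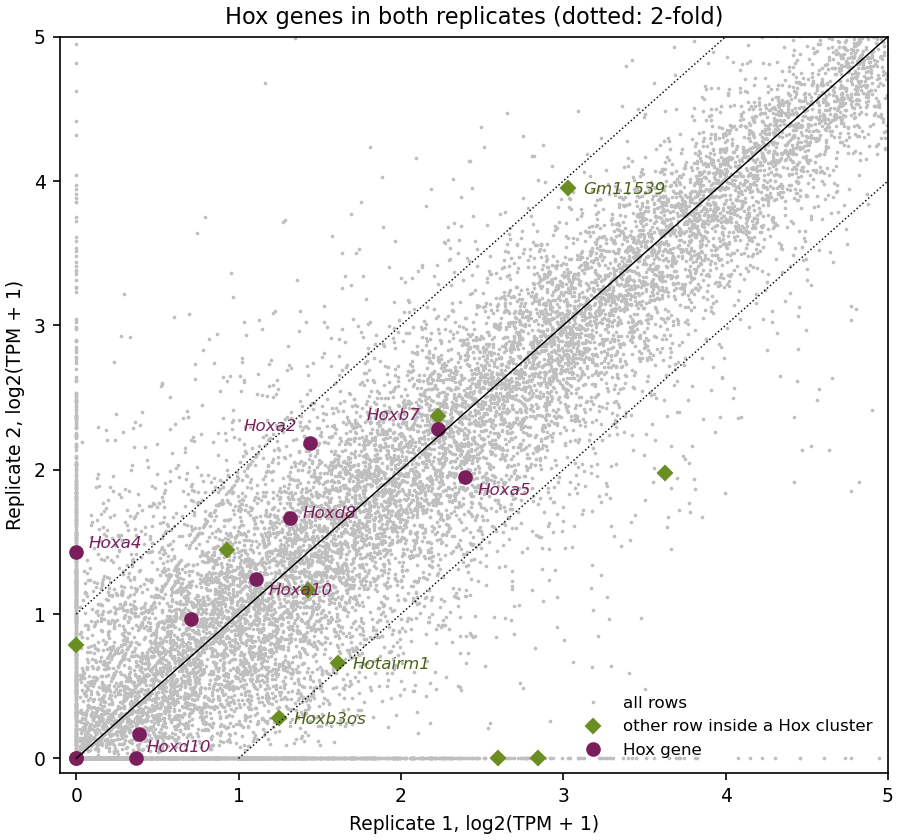
Each row of the table plotted by log2(TPM + 1) in replicate 1 (x axis) and replicate 2 (y axis), showing the range from 0 to 5; grey points are all rows, purple circles 11 Hox genes, green diamonds other rows inside a Hox cluster, the solid line equality and dotted lines a 2-fold difference. Hoxa4 lies on the left edge above the upper dotted line, and the other Hox genes drawn lie between the dotted lines.

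Other transcripts inside the clusters gave values of the same order as the Hox genes. Hoxd3os1 (chromosome 2, 74703248 to 74716130), an antisense transcript whose span includes Hoxd8 without exonic overlap and that faces other HoxD genes over 12.1% of its exonic bases, was at 1.68 TPM in replicate 1 (46 reads) and 1.25 TPM in replicate 2 (12 reads). Hotairm1 (chromosome 6, 52156902 to 52162119), a noncoding RNA of the HoxA cluster, was at 2.05 TPM (20 reads) and 0.584 TPM (2 reads), with overlapping intervals. Hoxb5os was at 0.907 TPM (6 reads) and 1.72 TPM (4 reads).

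Hoxb3os (chromosome 11, 96343072 to 96354691) stood apart between the libraries, at 1.38 TPM with 55 reads (interval 1.04 to 1.79) and 0.214 TPM with 3 reads (0.04405 to 0.624). Of its exonic bases 76.2% face HoxB genes on the opposite strand, and since strand handling is not stated, reads of either cannot be told apart. The highest row inside any cluster was Gm11539, a processed pseudogene in HoxB, at 7.18 and 14.5 TPM. It shares 41.3% of its 50-base words with other genes, most with the ribosomal protein gene Rpl18, so its value is uncertain. The short RNA genes Gm27477, Gm27867, Gm27868 and Gm27605 had 0 to 11 reads per library, Gm27867 and Gm27868 lying wholly within exons of Hotairm1, and 9530018H14Rik had 3 reads in replicate 2.

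Most of the nearest protein-coding rows outside the clusters were more abundant than the Hox genes. There were 24 such rows, 3 on each side of each cluster, at distances of 28.9 to 910 kb, so some lie far from the Hox genes. Of these, 21 had 1 TPM or more in each library, and the median of the 24 was 3.62 and 3.60 on the log2(TPM + 1) scale. Beside HoxD, Mtx2, a mitochondrial protein gene 60.7 kb away, was at 127 and 105 TPM, and Lnpk on the other side at 2.36 and 1.96 TPM. Beside HoxA, Skap2 was at 4.68 ± 1.02 and Hibadh at 8.24 ± 1.26 TPM. Beside HoxC, Smug1 was at 3.67 ± 0.592 and Calcoco1 at 0.204 ± 0.0807 TPM, and beside HoxB, Ttll6 was at 0.792 ± 0.462 and Snx11 at 1.21 ± 0.0914 TPM (SD, n = 2). By mean TPM, 16 of the 24 were higher than Hoxb7, among them Mtx2, Skap2 and Hibadh but none of the other nearest rows. Of 12679 protein-coding rows, 8813 had 1 TPM or more in each library, and their medians of 3.88 and 3.64 TPM were near Hoxb7.

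Base composition was set beside the level. In the 250 bases before the start, Hoxa13 held 35 CpG and 80.0% G or C, Hoxd1 24 and 71.6%, and Hoxd10 20 and 65.6%, the lowest genes of the 7. Hoxd8 held 6 CpG and 44.4%, Hoxa2 6 and 46.4%, and the upstream start of Hoxa10 7 and 51.6%, with 20 and 59.2% at its other start. Hoxa5, with 28 CpG and 63.6%, did not follow this order. Across the 7 genes, with Hoxa10 as the mean of its starts, GC content and log2(TPM + 1) had a Pearson's r of -0.72 and a Spearman's rho of -0.74, and the CpG number an r of -0.49 and a rho of -0.42, given as a description of genes that lie in HoxA and HoxD only. All 32851 promoters in the table had a median of 6 CpG and 52.4%, and the 8 Hox promoters 20 and 61.4%.

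Letters known from factors that act on Hox genes were searched on both strands of the 300-base windows, which add the 50 bases after the start. GAAAGTG, from the PRDM1 site, and TTTATGG, from the CDX site, were in none of the 8 Hox windows, and they were in 4.81% and 2.75% of all windows. TGATTNAT, from the HOX-PBX site, was in that of Hoxa2 and in 3.22% of all. AGGTCA, a core element bound by nuclear receptors, was in those of Hoxa5, Hoxd8 and Hoxd10 and in 16.3% of all. The PRDM1 and CDX letters being absent says only that these windows do not hold them.

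Partners of the Hox proteins were present at low to moderate levels. TALE homeodomain proteins of the Pbx, Meis and Pknox families bind DNA together with Hox proteins. Of 9 such genes 6 had a row and 3 had 1 TPM or more in each library, with medians of 1.45 and 1.25 on the log2(TPM + 1) scale. Pbx2 was highest at 7.14 and 7.97 TPM, Pknox1 was at 2.38 and 0.868, Meis3 at 1.19 and 1.13, Pbx3 at 0.448 and 1.66, and Meis1 at 0.529 and 1.05 TPM in replicates 1 and 2. Cdx1, of the caudal genes that switch on trunk Hox genes, was the only row of 8 ParaHox and Evx genes, with 10 reads in replicate 1 and 2 in replicate 2 (0.471 ± 0.183 TPM, SD, n = 2).

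Most genes of the Polycomb complexes, which hold Hox clusters silent, were more abundant than the Hox genes. Of 23 Polycomb genes 22 had a row. Of these 18 had 1 TPM or more in each library, as had 8813 of 12679 protein-coding rows. By mean TPM 14 Polycomb genes were higher than Hoxb7, which lay near the protein-coding medians of 3.88 and 3.64 TPM. The Polycomb median was 3.32 and 3.66 on the log2(TPM + 1) scale. The highest were Mtf2 at 150 ± 20.7, Rbbp7 at 136 ± 3.57 and Eed at 86.0 ± 10.7 TPM (SD, n = 2), followed by Ezh2, the enzyme that methylates histone H3 on lysine 27, at 44.6 and 49.4 TPM in replicates 1 and 2. Of the opposing Trithorax proteins and H3K27 demethylases, 8 of 8 genes had a row and 6 reached a TPM of 1, with medians of 2.47 and 2.31. Ash2l and Wdr5 led at 23.5 ± 1.26 and 21.4 ± 0.931 TPM, while Kmt2a, the methyltransferase that keeps Hox genes on, was at 1.77 ± 0.397 TPM. The repressors of the somatic programme were Tfap2c at 17.6 ± 0.827, Prmt5 at 16.1 ± 1.18, Prdm14 at 14.7 ± 0.922 and Prdm1 at 6.98 ± 1.22 TPM, of which 3 are also PGC markers above.

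**Figure D4:**
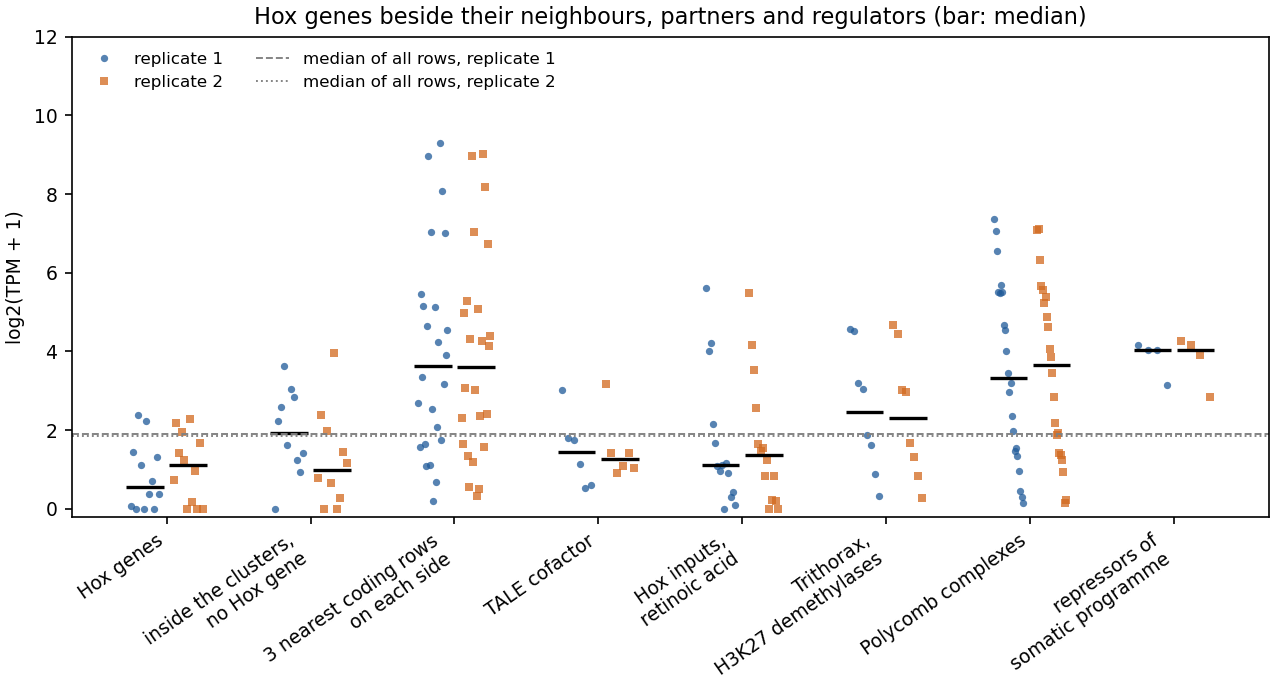
Level of each gene as log2(TPM + 1) on the y axis for the Hox genes, the rows inside and beside their clusters, and lists of partners and regulators; circles are replicate 1, squares replicate 2, black bars the medians, and grey lines the median of all rows in each replicate. The Hox medians (0.55 and 1.11) lie below the grey lines at 1.89 and 1.85, and those of the Polycomb genes (3.32 and 3.66) lie above them.

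Signals that open the clusters were also listed. Of 15 genes of retinoic acid handling and other Hox inputs, 14 had a row and 6 had 1 TPM or more in each library. This level was reached by 60.0% of all rows. The list medians of 1.10 and 1.36 on the log2(TPM + 1) scale lay below the 1.89 and 1.85 of all rows. Retinoic acid receptor genes were among the rows below 1 TPM, and the genes named next were among the highest. Crabp2, which carries retinoic acid to its receptors, led at 45.9 ± 3.22 TPM, and Crabp1 was at 14.0 ± 5.04 TPM and Aldh1a2, the enzyme that makes retinoic acid, at 4.19 ± 0.992 TPM (SD, n = 2).

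Cells of the trunk around the PGCs use Hox genes, and their markers were of the same order as the Hox values. Paraxial and lateral mesoderm markers (8 of 14 with a row, 2 past a TPM of 1) summed to 7.03 and 7.31 TPM in replicates 1 and 2, led by Tcf15 at 3.99 ± 0.890, with Lum and T at 0 in both. Intermediate mesoderm and gonadal markers (7 of 8, 3 past it) summed to 7.33 and 8.48 TPM, led by Lhx1 at 3.07 ± 0.294. Neural tube markers (3 of 8, 3 past it) summed to 6.41 and 7.05 TPM, led by Pax6 at 3.55 ± 0.00145 TPM (SD, n = 2). Hindgut markers (5 of 8, 3 past it) summed to 166 and 144 TPM, nearly all from Epcam, which is not restricted to endoderm, with Foxa1 at 0 in both and Foxa2 at 0 in replicate 1.

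Blood and vessel markers were uneven. Erythroid markers (5 of 7, 4 past it) summed to 3537 and 3331 TPM, led by Hba-x at 2198 ± 188 TPM. Endothelial markers (5 of 6, 1 past it) summed to 12.9 and 11 TPM. Most of this came from Pecam1 at 8.23 and 9.99 TPM (9.11 ± 1.25), the only one past it. Macrophage markers (4 of 6, 3 past it) summed to 19.4 and 9.53 TPM, led by Fcer1g at 8.56 ± 3.39 TPM (SD, n = 2). Emcn and C1qb were at 0 in replicate 2. The part that RNA of any of these cells had in the Hox values was not tested.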

How the data were processed

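PGCs were profiled by RNA-seq in 2 libraries. Per the study's methods, reads were aligned to mm10 with Hisat2 and counted per gene with featureCounts, and the authors deposited TPM for each gene, which corrects reads for gene length and library total. The submitters' processing notes also name Bowtie2, RSEM, DESeq2 and R 3.4.2, without their roles. The annotation used, strandedness and how reads on several genes were treated are not given in the sources used here. The methods describe Smart-seq2 cDNA with a TruePrep kit and the labels a NEBNext Ultra kit, and this was not resolved.

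Symbols were matched to GENCODE M21 (18748 with 1 identifier, 129 without). TPM times exon length, divided by the amount that 1 read was worth, gave whole numbers within 0.02 for 96.7% and 95.8% of values under 50 reads (4% by chance). Of the steps, only the recovery of reads was tested on simulated counts. The same exon lengths made and recovered these counts, so the test did not cover a different annotation. Levels are log2(TPM + 1), which understates differences between low genes. With 1 group no test was run, and TPM, a relative unit, moves with the most abundant genes. Expression was called at a TPM of at least 1.

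Hox genes with a row were named, of other lists at most 10 genes or the 4 highest and those at 0, and beside each cluster only the nearest row. Some genes, 1 Hox gene among them, and the median of the anterior members are not reported here, while counts, totals and medians over all members include them. Members and lists were chosen with earlier results of these data known. Homeodomain sequences were not used here. Analyses used Python 3.11.15, numpy 2.4.6, pandas 2.3.3, scipy 1.17.1 and matplotlib 3.10.9.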

Additional observations from a re-analysis of the deposited data

How the results depend on the processing

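For 11 results, alternatives gave 55 values in all, of which 37 stayed within the spread between replicates or within 1.5 times the count. With 2 libraries, a level without either replicate stays within this spread in every case. Such values among the 37 were therefore fixed beforehand. Neither the Hox difference from all rows nor the median replicate difference changed sign. With a pseudocount of 0.1, medians on the log2 scale were -0.28 for the Hox genes, -1.74 for their difference from all rows, -0.26, 1.95, -0.96 and -2.34 for clusters A to D, and 0.56 and -2.34 for central and posterior members, since this scale gives low genes lower values. The median replicate difference was then 0.15, and 4 members differed more than 2-fold. A mean TPM of at least 0.1, which leaves out Hoxa13 and Hoxd1, gave medians of 0.84 for HoxD and 0.68 for posterior members and a replicate difference of 0.20. HoxD then lay above HoxC at 0.56, which turned the order of these clusters. Scaling to rows with at least 200 exonic bases gave 2.43 for HoxB, 0.63 for HoxC and a replicate difference of 0.11, and median-ratio scaling gave 0.13. At a TPM of at least 5, 0 members were detected in both replicates, against 6 at 0.5 and 6 with at least 3 recovered reads in each library, an alternative chosen after seeing the data. Without replicate 1 or replicate 2, the Hox median was 1.11 or 0.55. No paired analysis was possible because both replicates belong to 1 group. Depth limits the members most in replicate 2, where each had at most 21 reads.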

Other observations

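Beside Hoxa4, some listed genes with few reads were seen in 1 library only. Of 101 other listed genes with a row, 25 had exact Poisson 95% intervals that did not overlap between the replicates, beside 26.7% of the 16879 rows with a read, and 3 of the 25 were at 0 in 1 library. Among them were Cyp26a1, which breaks down retinoic acid (0 reads in replicate 1 and 9 in replicate 2), and the endothelial gene Emcn (109 and 0 reads). Both were named after their values were seen. Among the TALE partners, Pknox1 was lower in replicate 2 (157 and 20 reads) and Pbx3 and Meis1 were higher (26 and 34 reads, and 53 and 37 reads, at 2.92 times the depth in replicate 1), each with separate intervals.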
